A study of Homo sapiens with 6 samples.

Results

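The 39 protein-coding genes of the 4 human HOX clusters were followed in WM164, a BRAF V600E mutant human melanoma line. They were the rows with the biotype protein_coding whose symbol is HOX followed by A, B, C or D and a number, 39 of 60504 genes and of 19664 protein-coding genes in the table. HOXA held 11 of them, HOXB 10, HOXC 9 and HOXD 9. RNA-seq libraries of cells that carried an empty expression vector (EV) were compared with libraries of cells that carried an HDAC8 expression vector, with 3 libraries in each group. HDAC8 is a class I histone deacetylase, and the study asked how raising it reshapes transcription in melanoma cells. Both groups share the BRAF V600E background, and the methods keep transfected cells of both kinds in hygromycin. The labels give no time, dose or batch, and nothing says that replicates came from separate transfections, so p-values measure the spread between these libraries, which may be technical.

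Total counts ran from 34741083 to 42041462 per library and overlapped between the groups. Pairs of libraries of the same group differed by more than counting noise, and HDAC8 1 lay farther from HDAC8 2 and HDAC8 3 (chi-square over degrees of freedom of 153 and 102) than these lay from each other (26.0), so the main results are also given without it. Mitochondrially encoded transcripts took 9.66% to 12.8% of the counts in EV libraries and 4.46% to 7.94% in HDAC8 libraries, and a fit without them left the HOX calls as they were. The HDAC8 transcript was at 384, 404 and 479 in EV and 485, 446 and 474 in HDAC8 cells in normalized counts, which are counts divided by the size factor of DESeq2. The groups overlapped, and the log2 fold change was 0.15 (SE 0.28) with a DESeq2 adjusted p of 0.856. These libraries thus do not show a raised HDAC8 transcript beyond the spread, and groups are called by their labels. The study probed HDAC8 protein by immunoblot in transfected cells, which these counts do not measure. Whether the vector carries the counted HDAC8 sequence is not given. Melanocyte markers were abundant, with SOX10 from 9686 to 18068 and MITF from 11314 to 17935 normalized counts over the 6 libraries. MLANA, TYR, DCT and PMEL, 4 of 7 melanocytic markers, fell, and 0 of the 7 rose, by the call rule given below. That rule called 5.57% of all genes higher in HDAC8 and 5.44% lower. EPCAM, KRT19, CDH5 and DCN, markers of epithelial, endothelial and fibroblast cells, were at 0 in every library, but other members of their lists had reads. A mean of at least 20 normalized counts was reached by 3 of 6 epithelial, 1 of 4 endothelial and 4 of 6 fibroblast genes. Of the other marker lists, 2 of 5 leukocyte genes rose (CD3E, at 0 in every EV library and at 78.7, 91.1 and 50.1 in the HDAC8 libraries, and CD68), as did 1 of 6 fibroblast genes (PDGFRA), and 0 of 6 epithelial and 0 of 4 endothelial genes were called. Of the 5 fibroblast genes tested, PDGFRA alone had a positive log2 fold change, and the median was -0.62. In 3 of the 5 every HDAC8 library lay below every EV library, against 12.7% of all tested genes. Summed over its list, the melanocytic level was 243744 to 327504 normalized counts in EV and 136368 to 181340 in HDAC8 libraries, the leukocyte level 2301 to 3302 and 4273 to 6165, the fibroblast level 2569 to 2980.1 and 1474 to 2452, the epithelial level 1834 to 2336 and 2462 to 3359, and the endothelial level 97.5 to 203 and 114 to 218. The part of these differences in the HOX values was not tested.

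HOX genes encode homeodomain transcription factors that give cells their position along the body axis. They lie in 4 clusters in which gene order follows the order of expression along the axis, from the anterior paralogues 1 to 3 through the central paralogues 4 to 8 to the posterior paralogues 9 to 13. Adult cells keep a HOX code that reflects where they arose. Trithorax group proteins such as KMT2A keep HOX genes active, Polycomb complexes keep them silent, retinoic acid turns on anterior members in development, and TALE homeodomain proteins bind DNA together with HOX proteins. Trunk neural crest, from which most melanocytes of the trunk and limbs derive, expresses HOX genes, while the most anterior cranial crest does not.

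WM164 cells transcribed members of all 4 clusters. Of the 39 members, 3 had no read in any library (HOXB1, HOXB13 and HOXC12), 29 had a mean of at least 20 normalized counts over the 6 libraries, and 24 had at least 10 counts in every library. The 36 members with reads passed the filter of a total count of at least 10, and DESeq2 gave an adjusted p to 33 of them. Calls required an adjusted p (Benjamini-Hochberg) under 0.05 together with a log2 fold change of 0.58 or more in size. By this rule 11% of all genes with an adjusted p were called (2313 of 21021), 5.57% higher in HDAC8 and 5.44% lower. Among the HOX genes 0 were called higher and 1, HOXB9, was called lower, and 3 of 36 had an unadjusted p under 0.05 (HOXB9, HOXA11 and HOXC8), against 19.5% of all genes. By edgeR's quasi-likelihood test, which called 8.12% of all genes (4.13% higher and 3.99% lower), and by limma-voom, which called 7.94% (3.8% higher and 4.14% lower), 1 HOX gene was called higher (HOXA11) and 1 lower (HOXB9). The groups did not overlap for 7 members. HOXA11 and HOXD1 were higher in every HDAC8 library than in any EV library, against 11.3% of all tested genes, and HOXB8, HOXB9, HOXC6, HOXC8 and HOXD3 were lower in every one, against 12.7%. The median log2 fold change of the 36 tested members was -0.16, against -0.00012 over all 26162 genes tested, and it was -0.08 with size factors from total counts, where the median of all genes was 0.04. Of the fold changes 14 were positive and 22 negative. Without HDAC8 1 the median was 0.00013 (all genes -0.07) and the split 18 and 18. The split was also 18 and 18 without EV 2, where the median was -0.04, and the median was -0.26 without EV 1, -0.08 without EV 3 and -0.10 without HDAC8 3. For 8 members the 95% interval of the log2 fold change lay within 1 of 0, and for the other 28 tested it reached past 1 or past -1. The values per library that follow are normalized counts.

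**Figure D1:**
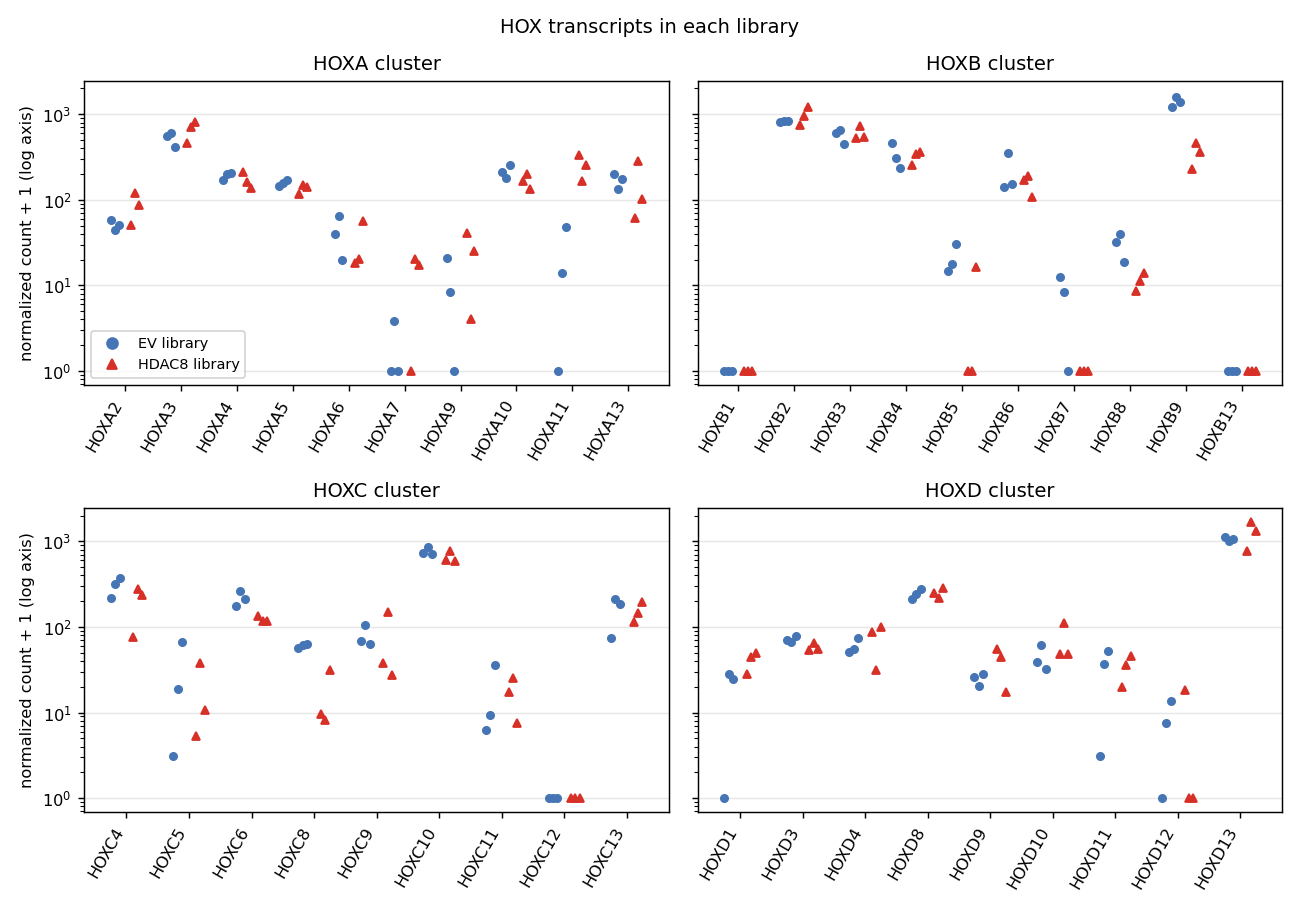
Normalized counts plus 1, on a log axis, of the HOX genes shown in each of the 3 EV (circles) and 3 HDAC8 libraries (triangles), by cluster and paralogue. HOXB9 and HOXA11 have clearly parted groups, HOXB1, HOXB13 and HOXC12 lie at 0 in every library, and most others overlap between groups.

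HOXB9, a posterior paralogue of the HOXB cluster that helps to pattern the thoracic skeleton, carried the only call of the main test. The gene (ENSG00000170689) lies on the minus strand at chr17:48621156-48626358 in GRCh38. Its normalized counts were 1207, 1604 and 1404 in EV and 229, 466 and 362 in HDAC8 cells. Each HDAC8 library thus lay below each EV library, with a wide gap between the groups. The means were 1405 ± 198 and 352 ± 119 (SD, n = 3). DESeq2 gave -1.997 ± 0.28 (log2 fold change ± SE) at an adjusted p of 1.02e-10, or 3.99-fold lower with a 95% interval from 2.73 to 5.85. In 15 alternatives log2 fold changes lay between -2.25 and -1.77 with adjusted p from 2.76e-13 to 1.44e-05, and without HDAC8 1 it was -1.77. In bulk RNA, fewer cells that express a gene and less RNA per cell cannot be told apart. The HOXB9 gene lies within the annotated span of HOXB7 on the same strand, but their exons do not overlap, and HOXB7 itself was at 11.5, 7.47 and 0 in EV and 0, 0 and 0 in HDAC8 cells.

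HOXB9 ranked 1 of 39 HOX genes in EV cells and 7 of 39 in HDAC8 cells. Per kb of the canonical transcript, HOXB9 had the highest level of all HOX genes in EV cells (543 ± 76.7 normalized counts per kb), next to HOXB2 (485 ± 7.21), HOXD13 (441 ± 25.1) and HOXC10 (385 ± 38.4). The ranges of HOXB9 and HOXB2 overlapped, as did those of HOXD13 and HOXC10, while those of HOXB2 and HOXD13 did not. A gap separated HOXC10 from the next gene, HOXC4 (177 ± 47.6). In HDAC8 cells HOXB2 (584 ± 140.0), HOXD13 (517 ± 191) and HOXC10 (331 ± 51.1) led, and HOXB9 was at 136 ± 45.9. Its share of the summed HOX level per kb was 13.4, 15.4 and 14.7% in EV and 3.26, 4.68 and 3.92% in HDAC8 cells. The summed level of all other HOX genes was 3185 ± 192 per kb in EV and 3239 ± 544 in HDAC8 cells, so the sum without HOXB9 differed by less than the spread. HOX genes together took 203 to 222 CPM in EV libraries and 164 to 221 CPM in HDAC8 libraries.

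**Figure D2:**
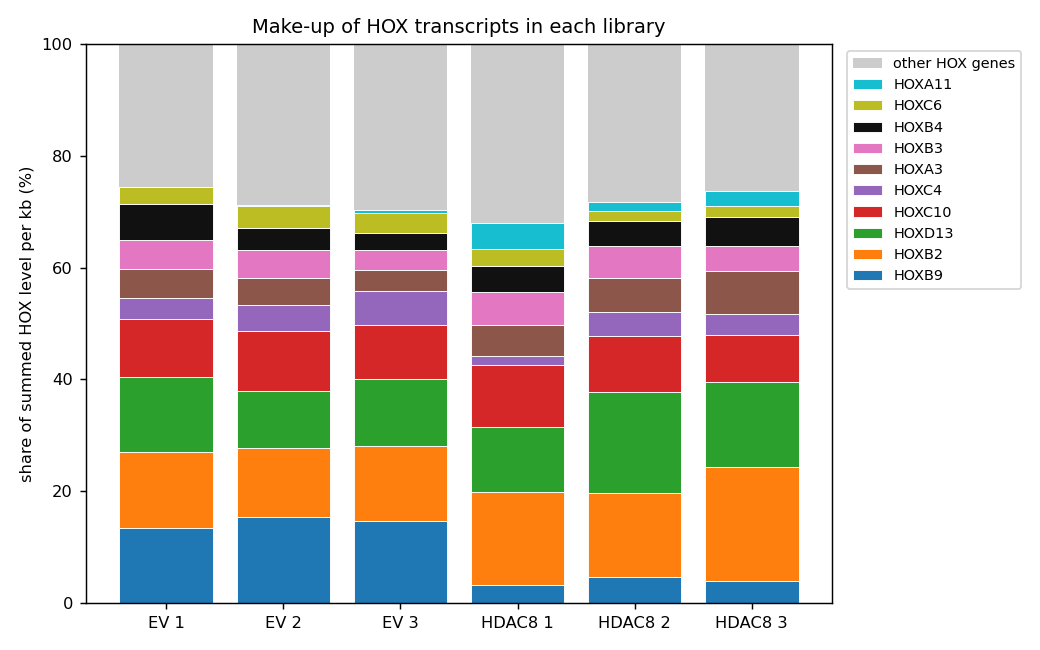
Share (%) of each HOX gene in the summed HOX level per kb of transcript, for each library, with 10 genes named and the rest pooled. HOXB9 takes 13.4% to 15.4% with EV and 3.26% to 4.68% with HDAC8, and HOXB2, HOXD13 and HOXC10 take large shares in all 6.

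HOXA11, a posterior gene needed for the forearm, the uterus and the kidney, had higher values in HDAC8 cells, but the main test did not call it. It (ENSG00000005073) lies on the minus strand at chr7:27181157-27185232 in GRCh38. Normalized counts were 0, 13.1 and 47.3 in EV and 334, 164 and 256 in HDAC8 cells. No HDAC8 library reached down to the EV range, but the EV libraries spread from no read to 47.3. The means were 20.1 ± 24.4 and 251 ± 85.3 (SD, n = 3). Their log2 ratio in DESeq2 was 3.64 ± 1.47 (SE), or 12.5-fold with a 95% interval from 1.69 to 92.1, and the DESeq2 adjusted p of 0.084 missed the threshold. edgeR gave a log2 fold change of 3.63 with an adjusted p of 0.00126, and limma-voom 5.11 with 0.0161, and both called it. DESeq2 also called it when EV 1 (adjusted p 0.000185), EV 3 (2.68e-08), HDAC8 1 (0.00885) or HDAC8 3 (0.00859) was left out, though not without EV 2 (0.296) or HDAC8 2 (0.194), with log2 fold changes from 3.06 to 5.23. Exons of HOXA11 overlap those of HOXA11-AS on the opposite strand, and since strand-specific counting is not stated, reads of the pair cannot be told apart with certainty. HOXA11-AS was at 34.6, 2.80 and 0.985 in EV and 81.2, 36.9 and 44.6 in HDAC8 cells, also without overlap (log2 fold change 2.09, DESeq2 adjusted p = 0.308). The level of HOXA11 per kb ranked 31 of 39 in EV and 11 of 39 in HDAC8 cells.

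HOXA13, the neighbour of HOXA11 at the posterior end of the cluster and a gene of digit and urogenital development, was at 197, 133 and 174 in EV and 60.7, 282 and 101 in HDAC8 cells. Its groups overlapped (log2 fold change -0.19, DESeq2 adjusted p = 0.927). The sequences just upstream of both start sites are shown because HOXA11 is the member that edgeR and limma-voom called higher and HOXA13 is its neighbour. They are the 250 bases 5′ of the RefSeq start in GRCh38.p14, on the minus strand, at chr7:27185233-27185482 for HOXA11 and chr7:27200092-27200341 for HOXA13, with each CG dinucleotide in capitals.
HOXA11: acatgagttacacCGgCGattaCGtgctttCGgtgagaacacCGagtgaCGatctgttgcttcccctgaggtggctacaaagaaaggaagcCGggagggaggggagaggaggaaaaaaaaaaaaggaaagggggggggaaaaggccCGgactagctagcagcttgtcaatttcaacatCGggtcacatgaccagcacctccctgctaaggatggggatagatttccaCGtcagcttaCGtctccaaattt
HOXA13: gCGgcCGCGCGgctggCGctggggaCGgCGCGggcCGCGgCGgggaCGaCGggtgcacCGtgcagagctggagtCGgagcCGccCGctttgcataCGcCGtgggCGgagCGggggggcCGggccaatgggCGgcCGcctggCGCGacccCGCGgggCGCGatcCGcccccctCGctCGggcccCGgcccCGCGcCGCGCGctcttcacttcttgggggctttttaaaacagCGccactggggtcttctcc
The HOXA11 stretch holds 11 CG dinucleotides, the median of all promoters in the RefSeq table. It overlaps an exon of HOXA11-AS and an exon of ENSG00000273961, both on the opposite strand. The HOXA13 stretch holds 40, the most of the 27 HOX entries, and lies in an intron of HOTTIP. RefSeq entries were found for 20 of the 39 members, with a median of 19 CG. None was for HOXB9, HOXC6, HOXC8 or HOXC10, and HOXB1 was the only HOXB gene among them. The 27 entries are not separate promoters of as many genes. Several are windows of HOXA3, and HOXC4 and HOXC5 share the same window. Motifs were searched on both strands of the same 250 bases. AGGTCA, the core nuclear receptor motif, was in 0 of the 27 HOX entries and in 12.1% of all promoters. TGANTCA, a loose form of the AP-1 site with any base in the middle, was in 0 of 27 and 6.57%, and TATAAA in 5 of 27 and 10.7%. These matches only describe letters in this window.

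**Figure D3:**
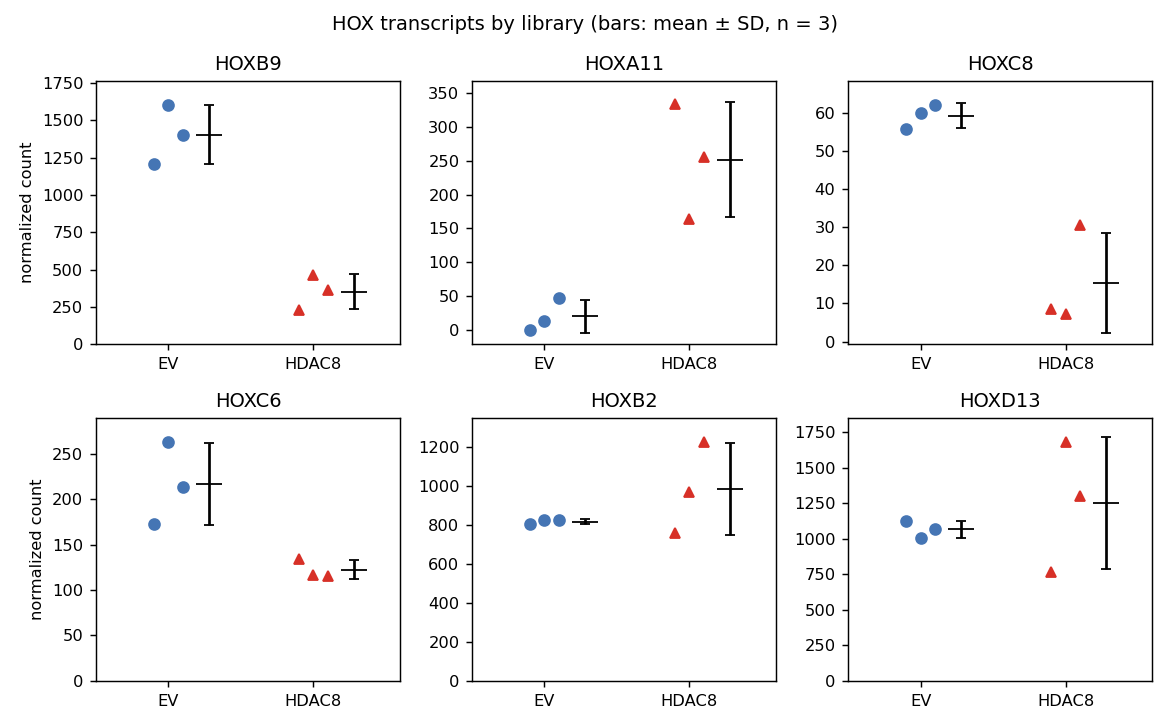
Normalized counts of 6 HOX genes in each EV (circles) and HDAC8 (triangles) library, with mean and SD (n = 3) beside them. Groups are apart for HOXB9, HOXC8 and HOXC6 (lower in HDAC8) and HOXA11 (higher), and overlap for HOXB2 and HOXD13.

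Of the 8 anterior members, 7 were tested and 0 called. HOXB2, which sets up a hindbrain segment and facial motor neurons, was at 802, 824 and 823 in EV and 755, 965 and 1225 in HDAC8 cells. HOXA3, needed for thymus and parathyroid, was at 549, 602 and 411 in EV and 456, 705 and 812 in HDAC8 cells, and HOXB3, another hindbrain gene, at 596, 657 and 442 in EV and 533, 734 and 538 in HDAC8 cells. The groups overlapped for each of these, with log2 fold changes of 0.27, 0.34 and 0.09 and DESeq2 adjusted p of 0.601, 0.595 and 0.925. HOXA2, which gives the neural crest of the second pharyngeal arch its identity, was at 56.6, 43.9 and 50.2 against 49.6, 119 and 86.0 (EV against HDAC8, also in what follows), with HDAC8 2 and HDAC8 3 above the EV range and HDAC8 1 within it. HOXD1 was at 0, 27.1 and 23.6 against 27.4, 44.04 and 49.0, low in both groups yet without overlap (log2 fold change 1.24, DESeq2 adjusted p = 0.661). HOXD3, which patterns the first cervical vertebrae, was at 69.2, 65.4 and 76.8 against 53.0, 63.5 and 54.4, a small difference without overlap (log2 fold change -0.31, DESeq2 adjusted p = 0.883). The median log2 fold change of the 7 tested anterior members was 0.27, and it was 0.42 without HDAC8 1 and 0.16 without HDAC8 3.

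The 15 central members were all tested, 0 were called, and their median log2 fold change was -0.47 with 3 positive and 12 negative values, a median that ran from -0.64 to -0.23 over the alternatives. HOXC8, a thoracic gene that marks brachial motor neurons, was at 55.6, 59.8 and 62.1 in EV and 8.55, 7.17 and 30.5 in HDAC8 cells. The EV libraries lay close together and the HDAC8 libraries all lay below them, HDAC8 3 highest (log2 fold change -1.95, SE 0.96, DESeq2 adjusted p = 0.192, unadjusted p = 0.0436). HOXC6, also a thoracic gene, was at 173, 263 and 214 in EV and 134, 117 and 115 in HDAC8 cells, again with no overlap (log2 fold change -0.83, SE 0.44, DESeq2 adjusted p = 0.24). HOXB8, the neighbour of HOXB9, was low, at 31.5, 39.2 and 17.7 against 7.70, 10.2 and 13.1 (EV against HDAC8), and did not overlap (log2 fold change -1.51, DESeq2 adjusted p = 0.509). For these 3 genes the lowest adjusted p over the alternatives was 0.0658, 0.0759 and 0.424, in that order.

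The other central members overlapped between the groups. Among the paralogues of group 4, HOXC4 was at 215, 314 and 376 against 75.2, 274 and 233 (EV against HDAC8, as in the following values), with HDAC8 1 lowest. HOXB4, known for expanding blood stem cells, was at 456, 311 and 232 against 251, 345 and 365, and HOXA4 at 168, 198 and 203 against 208, 161 and 135. HOXD4 was at 50.3, 54.2 and 73.9 against 87.2, 30.7 and 99.1, with HDAC8 2 apart from the other HDAC8 libraries. In group 5, HOXA5, a gene of lung development, was at 145, 157 and 171 against 115, 147 and 142 and HOXC5 at 2.10, 17.7 and 65.0 against 4.28, 36.9 and 9.80, where EV 3 alone exceeded every HDAC8 library. In group 6, HOXB6 was at 139, 352 and 153 against 168, 189 and 106 and HOXA6 at 38.8, 64.4 and 18.7 against 17.1, 19.5 and 55.5. EV 2 was the highest library of both. HOXD8, with the smallest fold change of the central genes, was at 212, 243 and 274 against 245, 217 and 285 (log2 fold change 0.04, 95% interval -0.69 to 0.76).

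Of the 16 posterior members 14 were tested, and HOXB9 alone was called. HOXD13, which shapes the digits, was at 1125, 1004 and 1066 in EV and 763, 1683 and 1303 in HDAC8 cells. HOXC10, a gene of the lumbar region and hindlimb motor neurons, was at 720.4, 848 and 713 in EV and 597, 770.2 and 593 in HDAC8 cells. Both had high levels and overlapping groups, with log2 fold changes of 0.23 (95% interval -0.30 to 0.76) and -0.22 (-0.70 to 0.27). HDAC8 1 had the lowest HOXD13 value and HDAC8 2 the highest. HOXA10, a gene of the uterus and lumbar vertebrae, was at 208, 179 and 254 against 166, 199.7 and 132 (EV against HDAC8, also in what follows) and HOXC13, a gene of hair and nail, at 72.4, 210.1 and 185 against 115, 146 and 195. HOXC9, which sets thoracic motor neuron identity, was at 67.1, 106 and 63.0 against 36.8, 149.5 and 26.1, with HDAC8 2 above and HDAC8 1 and HDAC8 3 below every EV library. HOXD9, HOXD10 and HOXD11 were low and overlapped between groups. HOXD9 was at 25.2, 19.6 and 27.6 against 53.9, 43.0 and 16.3, HOXD10 at 37.7, 59.8 and 31.5 against 47.0, 111 and 46.8 and HOXD11 at 2.10, 35.5 and 51.2 against 18.8, 34.8 and 44.6. Group 9 summed to 535, 706 and 600.4 per kb in the EV and 162, 306 and 178 in the HDAC8 libraries. HOXB9 alone made up 467, 620 and 543 of the EV sums. Group 11 summed to 2.84, 28.3 and 58.3 in EV and 141, 89.4 and 124 in HDAC8 libraries, of which HOXA11 made up 125, 61.4 and 95.9. Sums of group 4 (497 to 522 in EV, 370 to 486 in HDAC8) and group 6 (227 to 435 and 189 to 203) also did not overlap. Those of all other paralogue groups overlapped. Among all single genes tested, 24% had groups that did not overlap in either direction. The median log2 fold change of the 14 tested posterior members was -0.03, but neither its sign nor its size was stable. It was 0.03 with size factors from total counts, 0.08 in limma-voom, 0.11 with a replicate block and -0.15 among the 9 that reached 10 counts in each library. Its value was -0.26 without EV 1, 0.15 without EV 2, 0.35 without EV 3, 0.17 without HDAC8 1 and 0.22 without HDAC8 3.

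Members below a mean of 20 normalized counts were HOXA7, HOXA9, HOXB5, HOXB7, HOXC11 and HOXD12, beside HOXB8 and those without reads. Their single libraries ran from 0 to 40.2, and the groups overlapped for all 6. HOXA7 had 0, 3 and 0 reads in the EV libraries, and HOXB7 had none in any HDAC8 library, so their fitted fold changes are not given. DESeq2 gave no adjusted p for HOXA7, HOXB7 and HOXD12, which its default filter on mean counts left out.

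By cluster, the median log2 fold change was -0.17 for the 11 tested HOXA genes, -0.99 for 8 HOXB genes, -0.43 for 8 HOXC genes and 0.23 for 9 HOXD genes. Leaving out 1 library moved several of these medians by over 1.5 times. The HOXC median was -0.88 without HDAC8 2, -0.28 without EV 3 and -0.21 without HDAC8 1, and the HOXD median was 0.13 without HDAC8 2 and 0.48 without EV 3. With HOXB7 set at the bound that a floor of 3 counts per library gives, the HOXB median was -0.78, and it was -0.06 among the 5 HOXB genes that had 10 or more counts in each library. The HOXC values were all negative, 0 above and 8 below 0, but 2 became positive with size factors from total counts, with a replicate block, in limma-voom and without EV 2, HDAC8 1 or HDAC8 3, and 3 became positive without EV 3. In HOXD 7 were positive and 2 negative, also with size factors from total counts, against 5 and 4 without EV 1 or HDAC8 3 and 8 and 1 without EV 3. The HOXA median was -0.06 without EV 1 and -0.10 without EV 3, and it turned positive without EV 2 (0.09), HDAC8 1 (0.19) or HDAC8 3 (0.03). Summed per kb, HOXA was at 669, 673 and 654 in EV and 680, 803 and 800 in HDAC8 libraries, higher without overlap though its median was negative. HOXB was at 1465, 1707 and 1397 against 929, 1266 and 1291, lower without overlap. These sums include HOXA11 and HOXB9. The HOXC and HOXD sums overlapped between groups. So did the anterior and posterior sums, while the central sum (947 to 1195 against 741 to 910) did not. Along the HOXB cluster the called gene HOXB9 was the tested member farthest from HOXB1, 95.3 kb away, and HOXB2 to HOXB4, toward the other end, overlapped between groups.

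**Figure D4:**
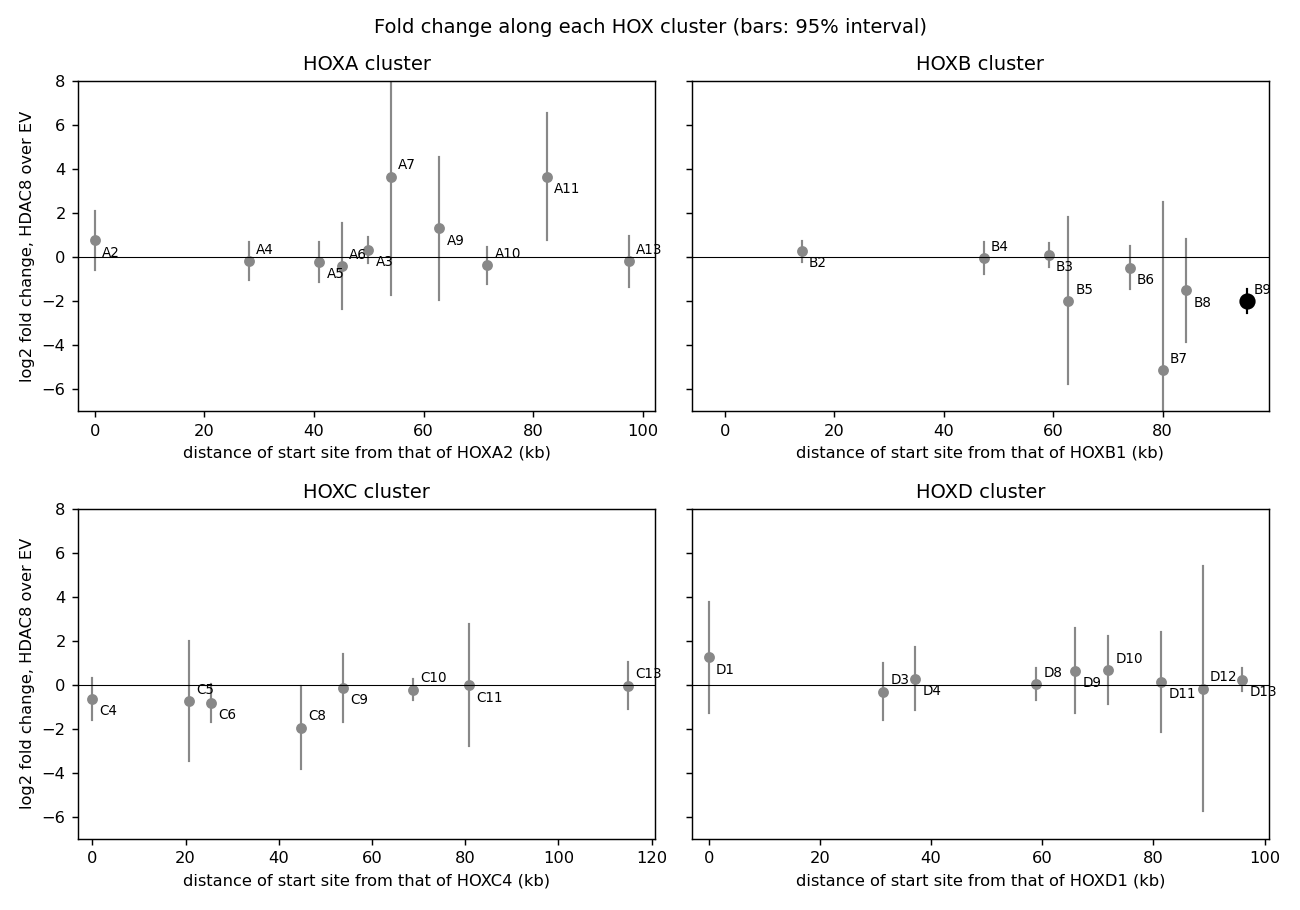
DESeq2 log2 fold change (HDAC8 over EV) of the tested HOX genes shown against the distance in kb of each start site from that of the gene named on the axis, with 95% intervals as bars (those of HOXA7 and HOXB7 run past the axis). HOXB9, in black, is the called gene, and of the other intervals only those of HOXA11 and HOXC8 do not cross 0.

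Between the outermost members of the clusters the table held 58 other rows, of which 23 were tested and 0 called. HAGLR, a noncoding transcript antisense to the anterior HOXD genes, came nearest, at 402, 535 and 511 in EV and 278, 196 and 338 in HDAC8 cells with no overlap (log2 fold change -0.84, SE 0.34, DESeq2 adjusted p = 0.0834). HOXA-AS2 was at 274, 285 and 262 against 285, 392 and 244 (EV against HDAC8) and HOXB-AS1 at 114, 84.1 and 83.7 against 168, 131 and 56.6, both with overlap. HOTAIR, the transcript from the HOXC cluster, was at 14.7, 14.9 and 0 against 0, 15.4 and 0, with no reads in 3 of the 6 libraries. Of 26 named noncoding transcripts of the clusters, 22 were in the table, 16 were tested and 0 called. Exons of 25 HOX members overlap those of another annotated gene, 16 on the same and 20 on the opposite strand, so their counts carry that uncertainty.

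A few genes that work with HOX proteins or regulate HOX genes passed the test, and each list can be read against the 5.57% higher and 5.44% lower of all genes. Of 9 TALE cofactors 2 rose and 0 fell (median log2 fold change of the list 0.37). PBX3 was at 616, 751 and 733 in EV and 1099.6, 1062 and 1159.7 in HDAC8 cells (log2 fold change 0.66, DESeq2 adjusted p = 0.0226), a call lost in limma-voom (adjusted p = 0.0651), with a replicate block (0.0777) and without EV 1 (0.166), EV 2 (0.0503), EV 3 (0.085) or HDAC8 3 (0.137). MEIS2 was at 3036, 2729 and 2754 against 2518, 3213 and 2448 (EV against HDAC8), with overlap, and MEIS1 was at 578, 533 and 561 against 566, 945 and 644.

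Among 30 Polycomb subunits 1 rose and 3 fell, with a median log2 fold change of 0.03. EZH1, a methyltransferase of PRC2, rose from 859, 908 and 775 to 1771, 1219 and 1165 (log2 fold change 0.71, DESeq2 adjusted p = 0.0219). AEBP2, an accessory subunit of PRC2, fell from 3051, 2497 and 2729 to 1391, 1649 and 1582 (DESeq2 adjusted p = 3.54e-05). The PRC1 subunit PCGF5 fell from 1687, 1713 and 2284 to 942, 1285 and 1152, by 0.75 on the log2 scale (DESeq2 adjusted p = 0.00549). EZH2 was at 2224, 1868 and 2414 against 2192, 2267 and 1756, with overlap. In the list of 22 MLL and Trithorax group proteins and H3K27 demethylases 2 rose and 0 fell, with a median of 0.07. KMT2A, the methyltransferase that keeps HOX genes active, rose from 9853, 11076 and 11638 to 14984, 18079 and 18959 (log2 fold change 0.68, DESeq2 adjusted p = 4.22e-05). KDM6B, a demethylase of H3K27, rose from 3076, 3649.8 and 2815 to 4989, 4472 and 5176 (log2 fold change 0.62, DESeq2 adjusted p = 0.00166). The call of EZH1 was lost in limma-voom (adjusted p = 0.0558) and with a replicate block (0.0581), and those of KDM6B (0.45) and PCGF5 (-0.57) fell under the fold change minimum after normalization within 20 bins of GC content. Leaving out a library also ended the call of EZH1 (without EV 1, EV 2, EV 3 or HDAC8 1, adjusted p = 0.0949, 0.0504, 0.142 and 0.102), of PCGF5 (without EV 3, 0.119) and of KDM6B (without EV 3, 0.0532, or HDAC8 3, log2 fold change 0.57).

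Of the 25 retinoic acid and axial patterning genes 19 were tested, 3 rose and 1 fell, with a median of -0.04. CYP26B1, an enzyme that breaks down retinoic acid, was at 40.9, 67.2 and 35.5 in EV and 739, 1023 and 725 in HDAC8 cells. The groups were far apart, and DESeq2 estimated a log2 fold change of 4.11 ± 0.35 (SE) at an adjusted p of 5.95e-29, or 17.3-fold. RDH10, which makes retinal from retinol, was at 651, 489 and 828 against 1220.2, 1546 and 1691 (EV against HDAC8, log2 fold change 1.18), and DHRS3, which turns retinal back into retinol, at 375, 728 and 516 against 1384, 854 and 1064 (1.03). RXRG, a retinoid X receptor, fell from 1995, 2232 and 1798 to 1166, 1352 and 1248 (-0.68). The DESeq2 adjusted p of these were 6.68e-05, 0.00639 and 0.00352, and the call was lost for DHRS3 without EV 1 (0.0818) or EV 3 (0.0504) and for RXRG without EV 2 (0.053). Among 14 neighbours of the clusters found in the table, 11 were tested, 1 rose and 0 fell. It was EVX2, a homeobox gene next to HOXD13, with 0, 1 and 3 reads in the EV libraries and 12.8, 28.7 and 54.4 normalized counts in the HDAC8 libraries (log2 fold change 4.62, DESeq2 adjusted p = 0.0348), a call that edgeR (adjusted p = 0.165) and limma-voom (0.0754) did not make. It was also lost without EV 1 (0.119), EV 2 (0.108), HDAC8 2 (0.0849) or HDAC8 3 (0.332). HOXD13 itself, on the other side of the gap between them, overlapped between groups.

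**Figure D5:**
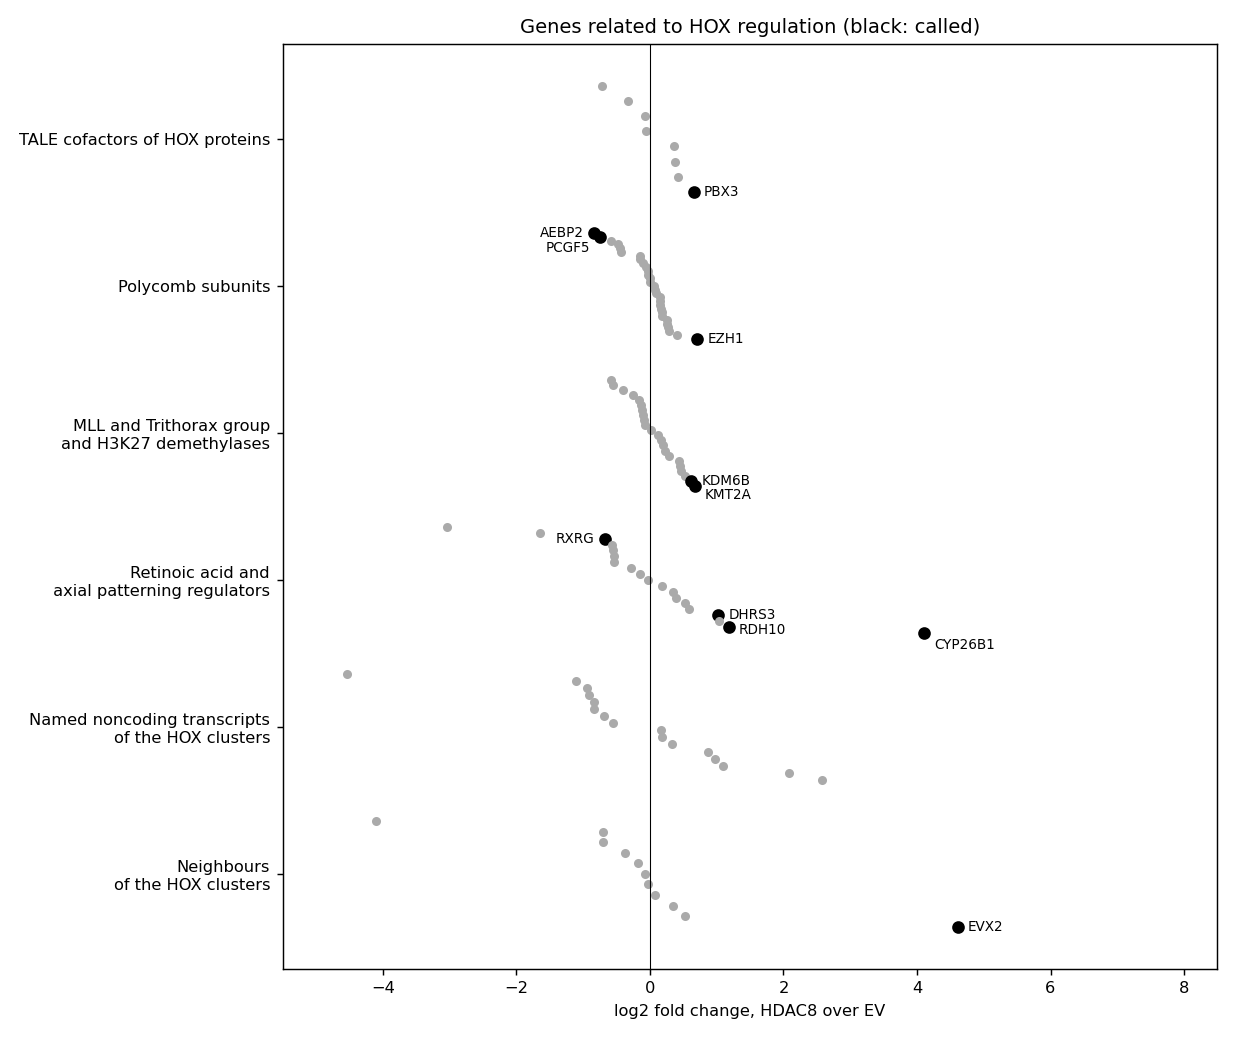
DESeq2 log2 fold change (HDAC8 over EV) of the tested genes shown from 6 lists related to HOX regulation, 1 point per gene, called genes in black with their names. CYP26B1 stands far from the rest of its list, and the position of EVX2 rests on EV libraries with 0 to 3 reads.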

How the data were processed

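RNA-seq was performed on 6 WM164 libraries. The authors used Trimmomatic for trimming, STAR for alignment to the transcriptome and RSEM for quantification. They deposited expected counts per gene, unscaled between libraries. Build, annotation release, duplicate removal and strandedness are not given in the sources used here, and 0 columns of values belonged to no sample. Rows without a symbol (3508) took 0.0804% to 0.102% of counts and kept their identifier. The labels and the methods name different RNA kits.

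Expected counts were rounded, and the groups were compared in DESeq2 1.42.0 (R 4.3.3, Wald test, two-sided, size factors 0.918 to 1.17, no covariates). A total count of 10 or more, which 26162 genes had, was required, and thresholds were those of the study's methods. A figure legend of the study gives the same fold change minimum with a p under 0.05 not corrected for multiple testing. The DESeq2 adjustment left out genes of low mean count by its default filter and covered 21021 genes. edgeR and limma-voom adjusted over all 26162. The floor was 3 counts per library (2.57 to 3.27 normalized counts), which covers counting error only, as reads carry no molecular identifiers. Intervals are at the 95% level from the DESeq2 standard error. Positions, exons and canonical transcript lengths came from GENCODE 44 (GRCh38), where 56558 of 60504 identifiers and all 39 members matched, and promoters from RefSeq (GRCh38.p14). Fits were also run on counts simulated from the DESeq2 dispersions. Changes were set there only in genes of higher mean count, so members of low count were not tested in this way.

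Members with a call, a mean of at least 20 normalized counts, or groups without overlap and a mean of at least 5 were given by library, and of each other list at most 5 called genes. Genes that were not called are named beside them as context and were chosen after their values were seen. The members and lists were chosen with earlier results of these data known. Alternatives were edgeR 4.0.16 and limma-voom (limma 3.58.1), other size factors, filters and thresholds, a replicate block, each library left out, and, added after seeing the data, scaling within 20 GC bins and a table without mitochondrial genes. Deviations of libraries with the same replicate number correlated at -0.03, -0.07 and 0.04 over 14451 genes, so numbers were not taken to pair libraries. Counts and medians cover whole lists, but some genes in them are not reported here by name. SK-MEL-28 was not analysed here.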

Additional observations from a re-analysis of the deposited data

How the results depend on the processing

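HOXB9 was the 1 HOX gene called lower under every alternative run. The count of HOX genes called higher was 0, but 1 by edgeR and by limma-voom, and 0 to 1 with a library left out, each time HOXA11. Of 442 alternative values of the 30 named HOX genes 412 kept their sign and call, and 24 of 12 genes that were never called changed sign. Over the libraries left out these ran from -1.15 to 0.0906 (HOXA6), -1.05 to 0.187 (HOXA13), -0.073 to 0.212 (HOXB3), -0.265 to 0.234 (HOXB4), -0.71 to 0.0798 (HOXB6), -2.01 to 0.764 (HOXC5), -1.32 to 0.246 (HOXC9), -0.383 to 0.236 (HOXC13), -0.0105 to 0.652 (HOXD4), -0.0695 to 0.132 (HOXD8), -0.409 to 0.789 (HOXD11) and -0.0395 to 0.486 (HOXD13). HOXC13 was also at 0.0165 by limma-voom, 0.0158 with size factors from total counts and 0.0676 with a replicate block. The block left the HOX counts at 0 higher and 1 lower, and no library correlated best with the other library of its own number.

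The test against the fold change minimum called 292 of all genes higher and 291 lower (1170 and 1143 without it), and 2 higher and 0 lower of the related genes (9 and 4 without it). With each library left out, all genes called ran from 877 to 1218 higher and 746 to 1378 lower (746 without EV 3), and related genes from 5 to 10 higher (5 without EV 3 or HDAC8 3) and 3 to 8 lower (8 without HDAC8 1). With at least 10 counts in every library, 7 related genes were called lower. The cause of these differences was not tested. With 3 libraries a group, members of low count carry wide intervals, and antisense partners of 20 members on the opposite strand limit the reading of their counts.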
